A study of Mus musculus with 32 samples.

Results

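The genes described here are 36 genes of autophagy and the lysosome, taken by their symbols from the 24421 genes of the raw gene count table and followed through 8 stem and progenitor fractions of mouse bone marrow at 2 ages. Earlier results of these data were known when the list was chosen. The list was set by gene symbol and not by a cut on any measured value. It holds the autophagy-related (Atg) genes, the Ulk kinases, the Atg8 family, the cargo receptor gene Sqstm1, the transcription factor genes Tfeb, Tfe3 and Foxo3, and the lysosomal membrane genes Lamp1 and Lamp2. Each of the 36 passed the filter on low counts, so that 14154 genes were tested in all and no member was lost, and each had more than 3 counts in each of the 32 libraries.

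Macroautophagy wraps part of the cytoplasm in a double membrane, the autophagosome, which then fuses with a lysosome whose enzymes digest the contents. The Ulk kinase complex starts the process, a phosphatidylinositol 3-kinase (PI3K) complex marks the site, Atg9 and Atg2 proteins supply lipid, and ubiquitin-like conjugation systems attach Atg8 proteins such as LC3 and GABARAP to the growing membrane. In blood-forming tissue autophagy is known for clearing mitochondria and for the maintenance of quiescent stem cells, and TFEB, TFE3 and FOXO3 are known activators of its genes. Levels of mRNA are what was measured here; the flow of material through autophagosomes was not.

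Young mice were 10 weeks old and aged mice 20 months old, females of the strain C57BL/6 with no transgene or treatment. The fractions were lineage-negative cells gated by surface antigens. Hematopoietic stem cells (HSCs) were CD34- CD150+ CD48- Flt3- cells within the Sca-1+ c-kit+ gate; the multipotent progenitors of that gate were CD34+ and were divided into MPP1 (CD150+ CD48- Flt3-), MPP2 (CD150+ CD48+ Flt3-), MPP3 (CD150- CD48+ Flt3-) and MPP4 (CD150- CD48+ Flt3+). Granulocyte-macrophage progenitors (GMPs; FcgR+ CD34+) and megakaryocyte-erythrocyte progenitors (MEPs; FcgR- CD34-) came from the Sca-1- c-kit+ gate, and common lymphoid progenitors (CLPs) from IL-7 receptor-positive cells with low Sca-1 and low c-kit. Marrow was pooled by age before the sort and each fraction was sorted in duplicate, giving 2 libraries for each of 16 groups, so that p-values measure the spread between these libraries, which may be technical.

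Levels are given on the counts-per-million (CPM) scale of the scaled library total, and the raw totals ran from 11237384 to 17723245 counts. A gene was called changed at an adjusted p under 0.01 in edgeR's quasi-likelihood test over the 32 libraries, with Benjamini-Hochberg adjustment over the 14154 genes. Where libraries of a called gene are said not to overlap, the call used the same values, so this is no separate result. Atg14, Atg9a and Rb1cc1 had no overlap between ages in 7 of 8 fractions each. With age they were called in no single fraction. Some defining genes fitted the gates. Mpo was at a mean of 69001 CPM in young GMPs against 189 in young MEPs. Klf1 was at 1002 in young MEPs against 3.69 in young GMPs, and Il7r at 158 in young CLPs against 0 in young HSCs. Genes of other lineages were present too. Young CLPs had the basophil gene Prss34 at a mean of 1296 CPM, Mpo at 1180 and the dendritic cell gene Siglech at 1063. Young MEPs had the B cell gene Cd79a at 55.5 and Il7r at 13.4. Their part in the comparisons of young fractions was not tested. The libraries of aged CLPs stood apart from each other in many of the genes below, and results that rest on the first of them are given with and without it. Aged CLPs also carried Ly6a, which encodes Sca-1, at a mean of 214 CPM against 35.2 in young CLPs. In bulk libraries such as these, a lower share of a cell type and less of an RNA in each cell cannot be told apart.

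Because TFEB and TFE3 bind the letters CACGTG, the promoters of the members were searched for it. RefSeq promoter windows of the build GRCm38.p6, from 250 bases before to 50 bases after the start, were found for 30 of the 36 members. CACGTG, which reads the same on both strands, was in 5 of these 30, namely Atg3, Atg5, Atg7, Atg14 and Lamp1. That is 16.7% of the members against 8.09% of all 27025 genes with such a window. The longer TCACGTGA, which contains it, was in Atg3 alone among the members (3.33%) and in 1.12% of all genes. GTAAACA, a letter run bound by forkhead factors such as FOXO3, was in 0 of the 30 members on either strand and in 4.05% of all genes. The Lamp1 stretch holds 4 copies and those of Atg3 and Atg5 hold 2 and 1; they are shown on the plus strand with each CACGTG in capitals, for Lamp1 at chr8:13159081-13159160, for Atg3 at chr16:45158705-45158784 and for Atg5 at chr10:44268259-44268338.
Lamp1: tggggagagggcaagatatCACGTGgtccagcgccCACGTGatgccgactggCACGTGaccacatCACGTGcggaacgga
Atg3: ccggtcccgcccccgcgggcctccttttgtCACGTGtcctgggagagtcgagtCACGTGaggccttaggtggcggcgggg
Atg5: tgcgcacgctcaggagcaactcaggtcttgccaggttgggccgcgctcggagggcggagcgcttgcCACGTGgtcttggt
A match of letters is a description of the window and not a measured binding site.

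In young HSCs the genes of the Atg8 proteins, which carry the autophagosome membrane its tag, were among the members with the highest level per length. On the scale of mean CPM per kilobase of exon, Gabarapl1 stood at 248, Gabarap at 157, Lamp1 at 155, Sqstm1 at 149 and Map1lc3b at 107, while the lowest members, Wipi1 and Foxo3, stood at 1.86 and 1.19. Across the young fractions the widest range belonged to Tfeb, which was at a mean of 101 CPM in CLPs and 11 CPM in MEPs, a ratio of 9.23 without correction for GC content and length, which moved its MEP level by more than 1.5 times. Gabarapl1 followed with a ratio of 6.62 between HSCs and GMPs, Ulk1 with 6.41 between the same fractions and Map1lc3a with 6.03 between HSCs and MEPs. The narrowest range was that of Pik3c3, the catalytic subunit of the PI3K complex, at 1.26. The plot of fold changes between young fractions shows these patterns by role.

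**Figure D1:**
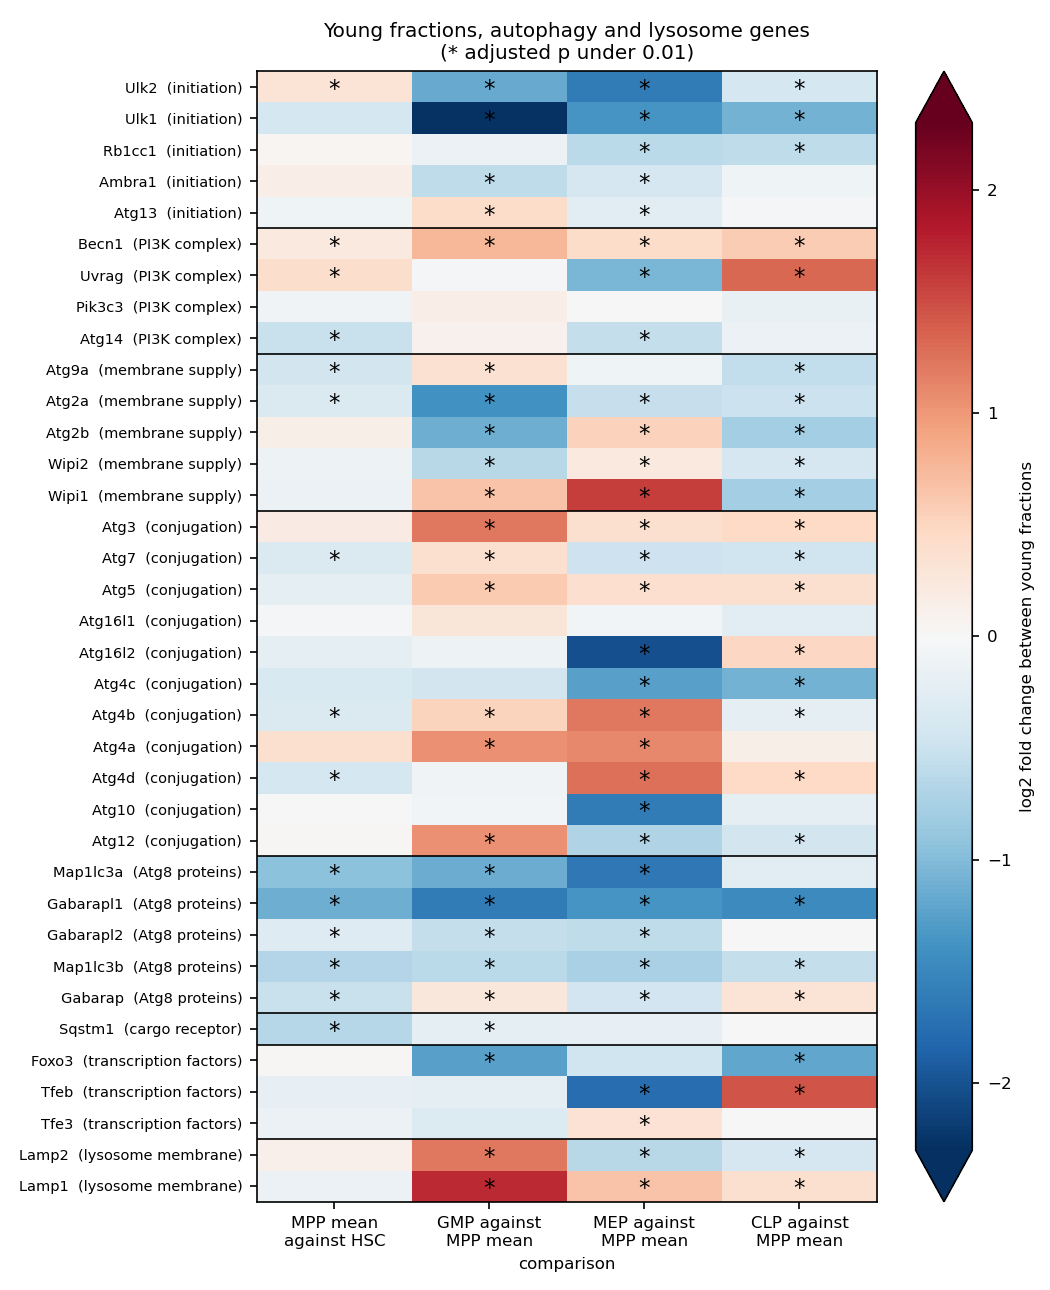
Log2 fold change (color) of each of the 36 genes (rows, with role) in 4 comparisons between young fractions (columns), where a star marks an adjusted p under 0.01. Gabarapl1 and Map1lc3a were lower in MPPs than in HSCs, and lower again in GMPs and MEPs than in MPPs, while Lamp1 and Lamp2 were higher in GMPs at log2 fold changes of 1.71 and 1.21.

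The first young comparison asked how the members differ between HSCs and their multipotent progeny. Gabarapl1, an Atg8 protein gene on chromosome 6 (129533160 to 129542346 in GRCm38), was at 448 and 455 CPM in the libraries of young HSCs, at 266 and 257 in MPP1, at 176 and 176 in MPP2, at 198 and 188 in MPP3 and at 206 and 199 in MPP4. Each MPP library was thus below both HSC libraries, and the mean of MPP1 to MPP4 was lower than HSCs by a log2 fold change of −1.13 ± 0.06 (SE; adjusted p = 8.45e-13). Map1lc3b, which encodes the LC3 protein used as a marker of autophagosomes, was at 546 and 563 CPM in HSCs and between 292 and 426 in the 8 MPP libraries (−0.68 ± 0.05, adjusted p = 1.06e-10). The whole Atg8 group fell in this contrast, 5 of 5, with Map1lc3a (33.9 and 40.5 CPM in HSCs against 16.7 to 23.7 in MPPs) at −0.94, Gabarap at −0.52 and Gabarapl2 at −0.29.

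Sqstm1 encodes p62, which binds ubiquitinated cargo and tethers it to Atg8 proteins. It was at 405 and 437 CPM in young HSCs and between 218 and 294 in the young MPPs, with no overlap (−0.66 ± 0.06, adjusted p = 2.94e-08). Over all roles 12 of the 36 members were lower in MPPs and 3 were higher, where 19.2% of all tested genes were lower and 18.9% higher. The 12 also held Atg14, a subunit that targets the PI3K complex to autophagy, at −0.51, the lipid scramblase gene Atg9a at −0.43, the lipid transfer gene Atg2a at −0.34, and the conjugation genes Atg7, Atg4b and Atg4d at −0.33, −0.33 and −0.40. The 3 higher members were Uvrag (66.1 and 64.7 CPM in HSCs against 70.9 to 122 in MPPs) at 0.41, Ulk2 (72.6 and 61.4 against 78.6 to 91.2) at 0.31 and Becn1 (98.2 and 95.2 against 103 to 124) at 0.22, none of them with overlap. With offsets for the GC content and exon length of each gene, these 3 lost their calls and the split was 0 higher and 18 lower.

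The second young comparison set GMPs, the precursors of granulocytes and macrophages, against the MPP mean. The lysosomal membrane genes stood out as higher. Lamp1 was at 1023 and 1035 CPM in young GMPs and between 289 and 347 in the 8 young MPP libraries, a log2 fold change of 1.71 ± 0.05 (adjusted p = 1.97e-18). Lamp2, whose product lines the lysosome and takes part in its fusion, was at 565 and 541 CPM against 210 to 262, again with no overlap (1.21 ± 0.09, adjusted p = 2.76e-11). Part of the Lamp1 signal could not be assigned, since 177 of its exonic bases are shared with Grtp1 and no strand setting of the counting was stated.

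Conjugation genes were also higher in GMPs, 6 of 11 with 0 lower, beside 32.1% higher and 32.7% lower over all tested genes. Atg3, which hands Atg8 proteins to lipid, was at 129 and 118 CPM in GMPs and between 46.5 and 55.9 in MPPs (1.22 ± 0.07, adjusted p = 1.92e-12). Atg12, the ubiquitin-like partner of Atg5, was at 158 and 142 CPM in GMPs and between 64.7 and 78.3 in MPPs (1.05 ± 0.05, adjusted p = 8.90e-14), and Atg5 was higher by 0.60. The protease gene Atg4a, which has a pseudogene copy (Atg4a-ps) that could share its reads, changed by 1.05. Becn1, the scaffold of the PI3K complex, was higher by 0.77, although it shares 1394 exonic bases with Cntd1.

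The initiating kinase genes and the Atg8 gene Gabarapl1 moved the other way. Ulk1 was at 16.7 and 24.5 CPM in GMPs against 78.8 to 127 in MPPs (−2.27 ± 0.16, adjusted p = 3.27e-11), and Ulk2 was lower by −1.16. Gabarapl1 was at 67 and 69.2 CPM, below each MPP library (−1.60 ± 0.07, adjusted p = 1.51e-14), and Map1lc3a changed by −1.15. In total 13 members were higher and 12 lower in GMPs, against 32.1% higher and 32.7% lower over all tested genes. The calls named in these paragraphs held with the GC and length offsets, but the split became 19 higher and 6 lower, and Atg2a (31.3 and 33.2 CPM in GMPs against 76.9 to 96.6 in MPPs) moved from −1.39 to −0.03 and Atg2b from −1.13 to −0.19.

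In MEPs, the precursors of platelets and red cells, 11 members were higher and 20 lower than in MPPs, beside 31.3% higher and 39.5% lower over all tested genes. Wipi1, which encodes a reader of the lipid made by the PI3K complex, was at 21.4 and 22.3 CPM in MEPs and between 6.16 and 7.88 in MPPs (1.59 ± 0.14, adjusted p = 5.14e-10). The Atg4 proteases, which trim Atg8 proteins and take them off membranes, diverged within their family. Atg4b (177 and 165 CPM in MEPs against 67.9 to 81 in MPPs; 1.21), Atg4d (67.6 and 63.5 CPM against 23.6 to 30.5; 1.27) and Atg4a (41 and 45.1 CPM against 17.1 to 23.6; 1.10) were higher, whereas Atg4c was lower (−1.25). Reads of Atg4d are uncertain because 1379 of its exonic bases overlap Kri1.

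Atg16l2, a homolog of the conjugation scaffold Atg16l1, was at 3.33 and 4.45 CPM in young MEPs and between 13.5 and 18.2 in MPPs (−2.02 ± 0.18, adjusted p = 7.11e-10). Map1lc3a (6.47 and 5.89 CPM against 16.7 to 23.7) changed by −1.65, Ulk2 and the conjugating enzyme gene Atg10 by −1.60 each, and Gabarapl1 by −1.36. Each of these kept its direction and its call with the offsets, where Gabarapl1 was at −0.93. The offsets changed other members: Ulk1 moved from −1.35 to 0.01, Tfeb (14 and 7.97 CPM against 34 to 41.8) from −1.76 to −0.34 and Atg2a from −0.53 to 1.10, and the split became 19 higher and 10 lower.

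Young CLPs had the highest level of Tfeb, a master regulator of lysosomal genes, at 104 and 98.4 CPM against 34 to 41.8 in the 8 MPP libraries (1.44 ± 0.13, adjusted p = 2.18e-09). Uvrag, a PI3K complex subunit of endosome and autophagosome maturation, was at 222 and 211 CPM in CLPs, above the 70.9 to 122 of the MPPs (1.32 ± 0.09, adjusted p = 1.21e-11). Within the MPPs, Uvrag was at 117 and 122 CPM in MPP4 and at 85.3 or less in the other MPP libraries. Gabarapl1 was low in CLPs at 76.3 and 71.9 CPM (−1.47 ± 0.07, adjusted p = 1.01e-13), and Ulk1 (44.6 and 48.8 CPM; −1.09), Foxo3 (4.68 and 3 CPM; −1.20) and Atg4c (−1.08) were lower as well. Becn1 was at 168 and 171 CPM against 103 to 124 (0.58). In all 9 members were higher and 16 lower, against 28.2% and 25.2% of all tested genes, and with the offsets the split was 9 and 12. Young CLPs also carried dendritic cell markers at a summed 9950 to 10143 CPM and basophil and mast cell markers at 1740 to 1788. The part of such cells in these values was not tested.

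With age, the members changed little in size and in directions that differed between fractions. There were 27 calls over the 8 fractions, 12 higher and 15 lower in aged cells. That is 9.38% of 288 tests of a member in a fraction, below the 12.6% of such tests over all genes, so the members as a list were not called more often than other genes. The calls were at absolute log2 fold changes from 0.25 to 1.11. They fell on 16 members, of which Gabarapl1, Map1lc3b, Atg4b, Lamp1 and Lamp2 (5) were called higher in some fractions and lower in others. The other 20 were not called in any fraction: Atg3, Atg5, Atg7, Atg10, Atg13, Atg14, Atg16l2, Atg4a, Atg4c, Atg4d, Atg9a, Atg2b, Becn1, Pik3c3, Gabarap, Gabarapl2, Wipi2, Tfeb, Rb1cc1 and Ambra1. Lamp2 was higher in aged HSCs and lower in aged GMPs and MEPs, and with the GC and length offsets it was also called higher in MPP2 (0.45), MPP3 (0.34) and CLPs (0.48). Of the 27 calls 3 were kept in each of the 12 alternatives tried, and those were lower Sqstm1 in MPP4, lower Lamp2 in GMPs and higher Tfe3 in MEPs.

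**Figure D2:**
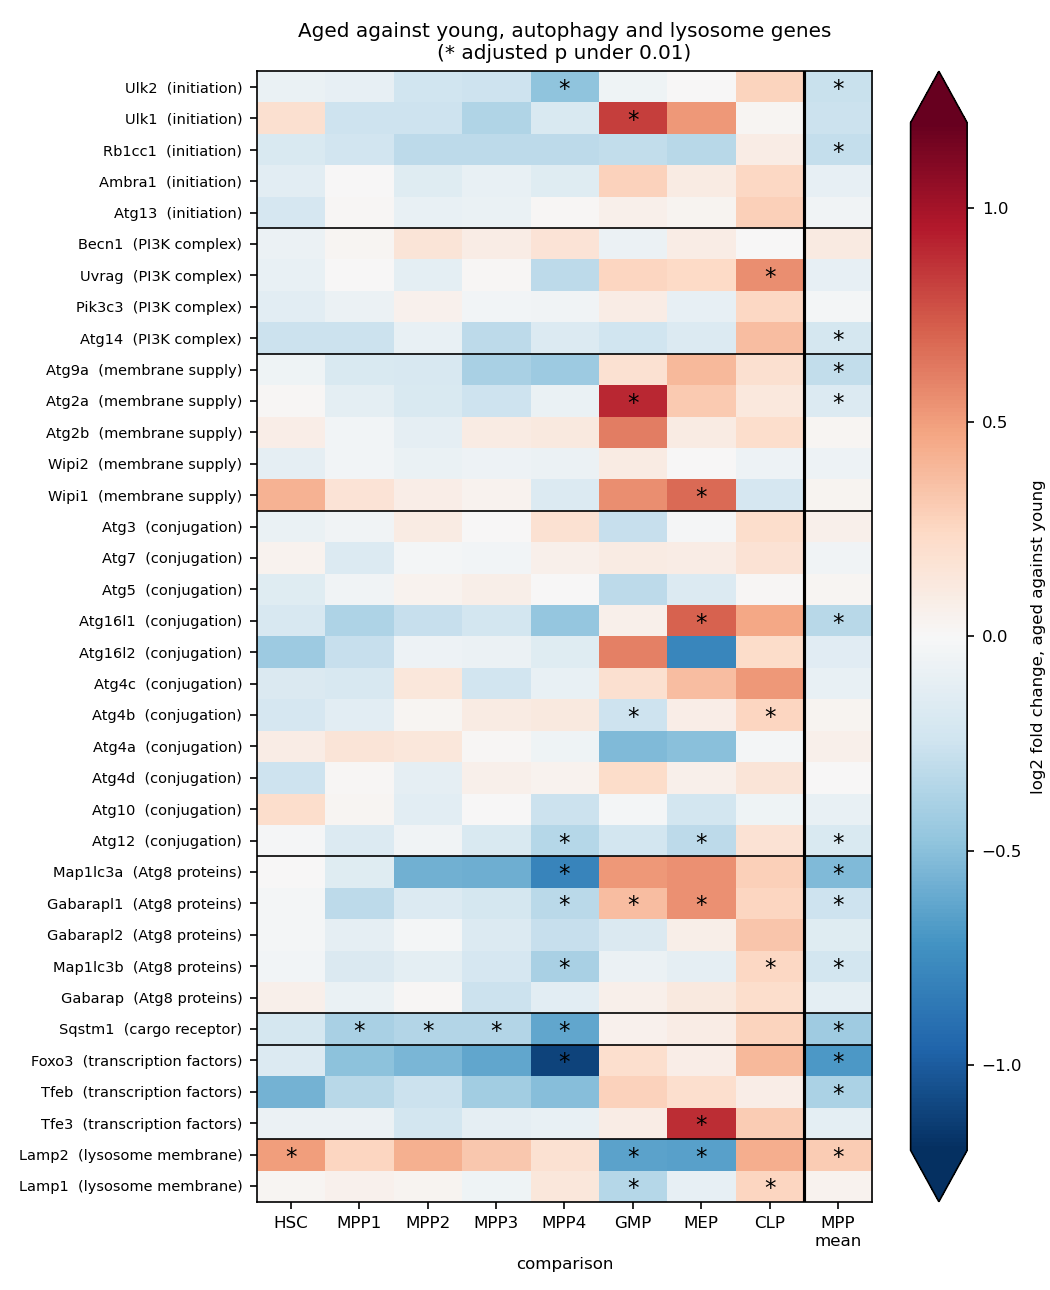
Log2 fold change (color) of each of the 36 genes (rows, with role) in aged against young cells of each fraction and of the mean of MPP1 to MPP4 (columns), where a star marks an adjusted p under 0.01. Sqstm1 was lower in MPP1 to MPP4, Lamp2 was higher in HSCs and lower in GMPs and MEPs, and 32 of 36 members were above 0 in CLPs.

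In aged MPPs Sqstm1 and 3 of the 5 Atg8 protein genes fell over the mean of the fractions. Sqstm1 (chromosome 11, 50199366 to 50210827) was at 285 and 292 CPM in young and 216 and 224 in aged MPP1, at 222 and 218 against 168 and 177 in MPP2, at 266 and 290 against 212 and 225 in MPP3, and at 294 and 287 against 183 and 196 in MPP4. Young and aged libraries did not overlap in any of the 4. Averaged over MPP1 to MPP4 it fell by 0.43 on the log2 scale (SE 0.04, adjusted p = 5.35e-08). The fold changes by fraction were −0.39, −0.35, −0.35 and −0.62, with adjusted p-values of 0.0036, 0.0077, 0.00546 and 1.92e-05.

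Map1lc3b was at 389 and 426 CPM in young and 358 and 365 in aged MPP1, and at 329 and 364 against 267 and 263 in MPP4, with the same order and no overlap in MPP2 and MPP3. Its mean change was −0.22 ± 0.03 (adjusted p = 6.01e-06). Gabarapl1 was at 266 and 257 CPM in young against 208 and 215 in aged MPP1, and at 206 and 199 against 158 and 167 in MPP4, and again each of the 8 aged libraries was below both young libraries of its fraction (−0.25 ± 0.04, adjusted p = 2.43e-05). Map1lc3a, a low-level LC3 gene, changed by −0.53 ± 0.10 (adjusted p = 1.25e-04). Thus 3 of 5 Atg8 genes were lower over the MPPs, and the other 2, Gabarap (−0.12, adjusted p = 0.0717) and Gabarapl2 (−0.15, adjusted p = 0.0152), passed when the GC and length offsets were used, at −0.22 and −0.24.

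**Figure D3:**
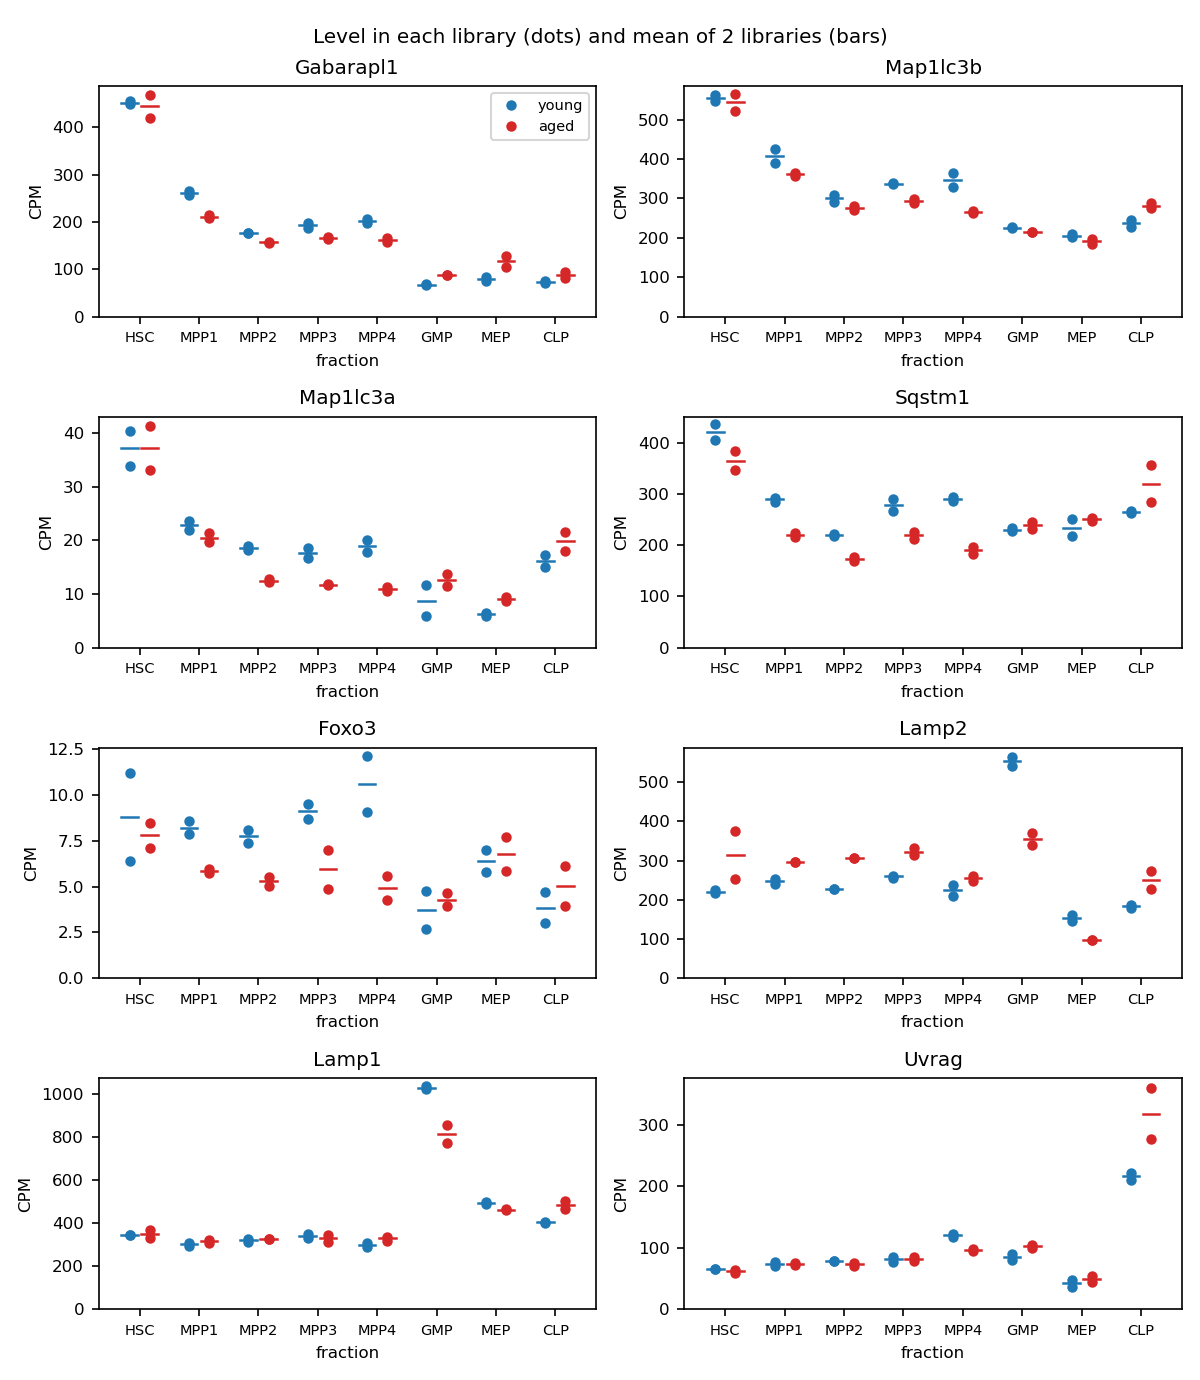
Level in CPM (vertical axis, from 0) of 8 genes in each library (dots) and the mean of 2 libraries (bars) for young and aged cells of each fraction (horizontal axis). Gabarapl1 was near 450 CPM in HSCs of both ages and below 100 CPM in young GMPs, MEPs and CLPs, and Lamp2 lay on opposite sides of its young level in aged MPPs and aged GMPs.

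Of the 3 transcription factor genes among the members, Foxo3 and Tfeb were lower in aged MPPs too, and Tfe3 (−0.12) was not called. Foxo3, a forkhead factor known to act in HSC maintenance, was between 7.36 and 12.1 CPM in the 8 young MPP libraries and between 4.27 and 7 in the 8 aged ones, a mean change of −0.69 ± 0.15 (adjusted p = 5.68e-04). Tfeb was between 34 and 41.8 CPM in young and between 25.6 and 32.7 in aged MPPs, so that the ages did not overlap (−0.38 ± 0.09, adjusted p = 0.00148), but with the offsets its adjusted p was 0.0243. The kinase gene Ulk2 changed by −0.27, Rb1cc1, the scaffold of the Ulk complex, by −0.29, and Atg12 by −0.18. Atg14 (−0.21), Atg16l1 (−0.33), Atg9a (−0.30) and Atg2a (−0.16) were also lower, and Atg2a was at 0.03 with the offsets.

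Over the mean of MPP1 to MPP4, 13 members were lower and 1 was higher with age, while 17.7% of all tested genes were lower and 18.9% higher. The higher member was Lamp2 (0.30 ± 0.06, adjusted p = 2.20e-04), at 240 and 254 CPM in young and 296 and 297 in aged MPP1, and at 227 and 228 against 308 and 306 in MPP2. The median log2 fold change of the members was −0.111, beside −0.038 over all genes, and 9 of 36 members were above 0. Of the 14 calls, 8 held in each alternative tried: Sqstm1, Map1lc3b, Gabarapl1, Map1lc3a, Foxo3, Ulk2, Atg12 and Lamp2. Macrophage markers were lower over the MPPs as well, 13 of 14 tested, with a summed level of 120 to 301 CPM in young and 69.8 to 112 in aged libraries. Erythroid markers (8 of 10), neutrophil and monocyte markers (7 of 11; in MPP3 from 4426 to 4684 down to 1936 to 1981 CPM in sum) and B cell markers (5 of 10) were lower too, and of 18 dendritic cell markers 5 were higher and 2 lower. The part of other cells in these changes was not tested.

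Within single MPP fractions the counts were small. In MPP1 to MPP3 the call was Sqstm1 and no other member, so 1 of 36 was lower in each. Over all tested genes 2.09% were lower and 4.71% higher in MPP1, 3.31% and 4.49% in MPP2, and 5.79% and 8.14% in MPP3. In each of these 3 fractions leaving out any of the 4 libraries took the count to 0. With the GC and length offsets the split was 0 higher and 2 lower in MPP1, 1 and 0 in MPP2 and 1 and 1 in MPP3, and Sqstm1 was at −0.29 in MPP2 and −0.27 in MPP3, with adjusted p-values of 0.0147 and 0.0157.

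MPP4, the lymphoid-primed progenitors, had 7 lower and 0 higher members, beside 6.27% lower and 10.3% higher over all tested genes. Foxo3 was at 12.1 and 9.06 CPM in young and 5.56 and 4.27 in aged MPP4 (−1.11 ± 0.30, adjusted p = 0.00826), but its adjusted p was 0.0133 with the GC and length offsets and 0.0136 with the MPP4 libraries alone. Map1lc3a was at 20.1 and 17.8 CPM against 11.3 and 10.6 (−0.79 ± 0.20, adjusted p = 0.0051), and Ulk2 at 91.2 and 88.3 against 62.1 and 66.9 (−0.48 ± 0.12, adjusted p = 0.00432). In these 3 genes, named because they were called from the same values, young and aged libraries did not overlap. Map1lc3b (−0.39), Atg12 (−0.34), Gabarapl1 (−0.32) and Sqstm1 (−0.62) made up the rest. With the offsets 6 members were lower and 0 higher in MPP4. Leaving out either young library left 3 calls and leaving out either aged library left 2, and Sqstm1 was among them each time.

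In aged HSCs 1 member passed the test. Lamp2 (chromosome X, 38401357 to 38456454) was at 224 and 218 CPM in young and 376 and 252 in aged HSCs (0.50 ± 0.12, adjusted p = 0.00674). The aged libraries lay apart, and without the first of them its change was 0.19 with an adjusted p of 0.206. Leaving out either young library also took the count to 0, and leaving out the second aged library took it to 2. So 1 member was higher and 0 lower, beside 3.74% and 1.66% of all tested genes, and the median of the members was −0.077 against 0.02. Neutrophil and monocyte markers rose in aged HSCs, 6 of 11 tested (summed level of 139 to 150 CPM in young and 328 to 410 in aged libraries). So did 4 of 6 basophil and mast cell, 2 of 9 T and NK cell and 2 of 18 dendritic cell markers, with 0 lower. Of 14 macrophage markers 3 fell and 0 rose, and of 10 B cell markers 1 fell and 0 rose. Whether any of these markers bear on Lamp2 was not tested.

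The Atg8 genes that set HSCs apart from MPPs did not pass the test with age in HSCs. Gabarapl1 was at 448 and 455 CPM in young against 420 and 467 in aged HSCs, Map1lc3b at 546 and 563 against 521 and 566, and Map1lc3a at 33.9 and 40.5 against 33.1 and 41.3. The ages overlapped in each of the 3. The test of the difference between the age effect in HSCs and that in MPPs called 0 members in edgeR and 1 in DESeq2, while 7 had an unadjusted p under 0.05 in edgeR, and 3.01% of all tested genes were called. A different age effect in HSCs and MPPs was therefore not shown for these genes.

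In aged GMPs both lysosomal membrane genes fell, and Atg2a, Ulk1 and Gabarapl1 were the members that rose. Lamp2 was at 565 and 541 CPM in young and 341 and 370 in aged GMPs (−0.64 ± 0.12, adjusted p = 3.05e-04), and this call held in each alternative tried. Lamp1 was at 1023 and 1035 CPM against 770 and 853 (−0.34 ± 0.06, adjusted p = 3.93e-04), and Atg4b fell by 0.25. Atg2a, a lipid transfer protein gene, was at 31.3 and 33.2 CPM in young and 66.4 and 53.8 in aged GMPs (0.90 ± 0.10, adjusted p = 1.16e-06). No overlap was seen in these genes, which were named because they were called from the same values.

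Ulk1 rose from 16.7 and 24.5 to 38.8 and 34.5 CPM in GMPs (0.83 ± 0.19, adjusted p = 0.00182), and Gabarapl1 from 67 and 69.2 to 88.4 and 88.2 CPM (0.37 ± 0.08, adjusted p = 0.00173). With the GC and length offsets Atg2a was at 0.35 (adjusted p = 0.00592) and Ulk1 at 0.37 (adjusted p = 0.0904), so the size of both depends on that choice. The counts were 3 higher and 3 lower, beside 9.93% and 8.97% of all tested genes, and with the offsets 2 and 4. Without the first aged library 2 members were called. Erythroid markers fell in aged GMPs, 6 of 10 tested (summed level of 1107 to 1270 CPM in young and 47 to 124 in aged libraries), as did 7 of 14 macrophage markers. The summed level of the macrophage list was 604 to 641 CPM in young and 494 to 547 in aged GMPs. Of its 15 genes 1 was at 0 in both young and 6 in both aged libraries. The part of both lists in these changes was not tested.

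In aged MEPs Tfe3, a relative of TFEB that drives lysosomal and autophagy genes, was higher. It was at 45.2 and 59.1 CPM in young and 96.8 and 96 in aged MEPs, and between 28.4 and 54.3 in the libraries of the other 7 fractions (0.89 ± 0.14, adjusted p = 4.93e-05). That call held in each alternative tried. Of 56 lysosomal enzyme and membrane genes, a list chosen beside the members, 13 were lower and 0 higher in aged MEPs. Over all tested genes 11.7% were lower and 9.08% higher there. In aged GMPs 7 of the 56 were lower and 0 higher, beside 8.97% and 9.93% of all tested genes. Atg16l1, which places the conjugation machinery on the membrane, was at 23.1 and 17.2 CPM in young and 30.5 and 35.2 in aged MEPs (0.71 ± 0.16, adjusted p = 0.00177). Wipi1 was at 21.4 and 22.3 CPM against 33.8 and 36.2 (0.68 ± 0.18, adjusted p = 0.00602).

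Gabarapl1 rose in MEPs too, from 84.6 and 75.9 to 106 and 129 CPM (0.55 ± 0.08, adjusted p = 2.78e-05). Lamp2 was at 146 and 162 CPM in young and 97.2 and 98.7 in aged MEPs (−0.65 ± 0.12, adjusted p = 2.58e-04), and Atg12 at 45.5 and 43.7 against 36 and 36.1 (−0.31 ± 0.08, adjusted p = 0.0037). With the offsets these lower members were at −0.27 (adjusted p = 0.0198) and −0.09 (adjusted p = 0.506). The counts were thus 4 higher and 2 lower, beside 9.08% and 11.7% of all tested genes, and with the offsets 6 and 0. Without the second aged library 3 members were called. Macrophage markers fell in aged MEPs, 9 of 14 tested, from a summed level of 27.6 to 28.1 CPM to one of 7.22 to 8.78. Of 15 listed 3 were at 0 in both young and 8 in both aged libraries. B cell markers fell from 212 to 224 CPM to 8.52 to 8.71. Whether these bear on the members was not tested.

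Aged CLPs showed the widest upward shift of the members. Of the 36, 32 had a log2 fold change above 0 (88.9%), beside 47.6% of all tested genes, and their median was 0.234 against 0. The called genes were 4 higher and 0 lower, where 5.71% and 4.73% of all tested genes were called. Uvrag was at 222 and 211 CPM in young and 360 and 277 in aged CLPs (0.56 ± 0.11, adjusted p = 0.00161). Map1lc3b was at 228 and 246 CPM against 288 and 275 (0.25 ± 0.06, adjusted p = 0.00766).

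Lamp1 was at 405 and 401 CPM in young and 501 and 463 in aged CLPs (0.26 ± 0.06, adjusted p = 0.00731), and Atg4b at 63.9 and 64.8 against 75.8 and 78.5 (0.26 ± 0.07, adjusted p = 0.00898). The ages did not overlap in any of the 4 genes, which were named because they were called from the same values. These calls rest on few libraries: without the first aged library 0 members were called, without either young library 1, and with the 4 CLP libraries alone 0. Map1lc3b and Atg4b were not called with the GC and length offsets (0.20 and 0.22, adjusted p = 0.0702 and 0.0122), and without the low-count filter 1 member was. Without the first aged library Uvrag was at 0.36 with an adjusted p of 0.081.

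Genes of the lysosome itself, a list of 56 enzymes and membrane proteins chosen beside the members, were in part called in aged CLPs, 29 higher and 1 lower, where 5.71% of all tested genes were higher and 4.73% lower. The cathepsins, the proteases of the lysosome, were in front. Ctsl was at 334 and 321 CPM in young and 1278 and 763 in aged CLPs (1.64 ± 0.14, adjusted p = 5.88e-08), and Ctsb at 1884 and 1892 against 3962 and 2738 (0.83 ± 0.11, adjusted p = 1.22e-05). Psap, the precursor of the saposins that help digest sphingolipids, was at 2903 and 2416 CPM against 5389 and 4525 (0.90 ± 0.12, adjusted p = 2.50e-05). The first aged library was the higher one in each of the 3.

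Ctsh (1.14), the acid ceramidase gene Asah1 (1.13), Ctss (1.01) and the macrosialin gene Cd68 (1.45) were further examples. The lower gene was Cd63, a tetraspanin of lysosomes and granules, which fell from 58.2 and 60.7 to 6.02 and 5.65 CPM (−3.35 ± 0.13, adjusted p = 1.27e-13). The summed level of the list was 12352 to 12743 CPM in young and 18283 to 23263 in aged CLPs. Of the subunits of the vacuolar proton pump, which acidifies the lysosome, 4 of 18 rose and 0 fell, beside the same 5.71% and 4.73%. Without the first aged library 12 of the 56 lysosomal genes were called, and 1 was when only the 4 CLP libraries entered the model.

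**Figure D4:**
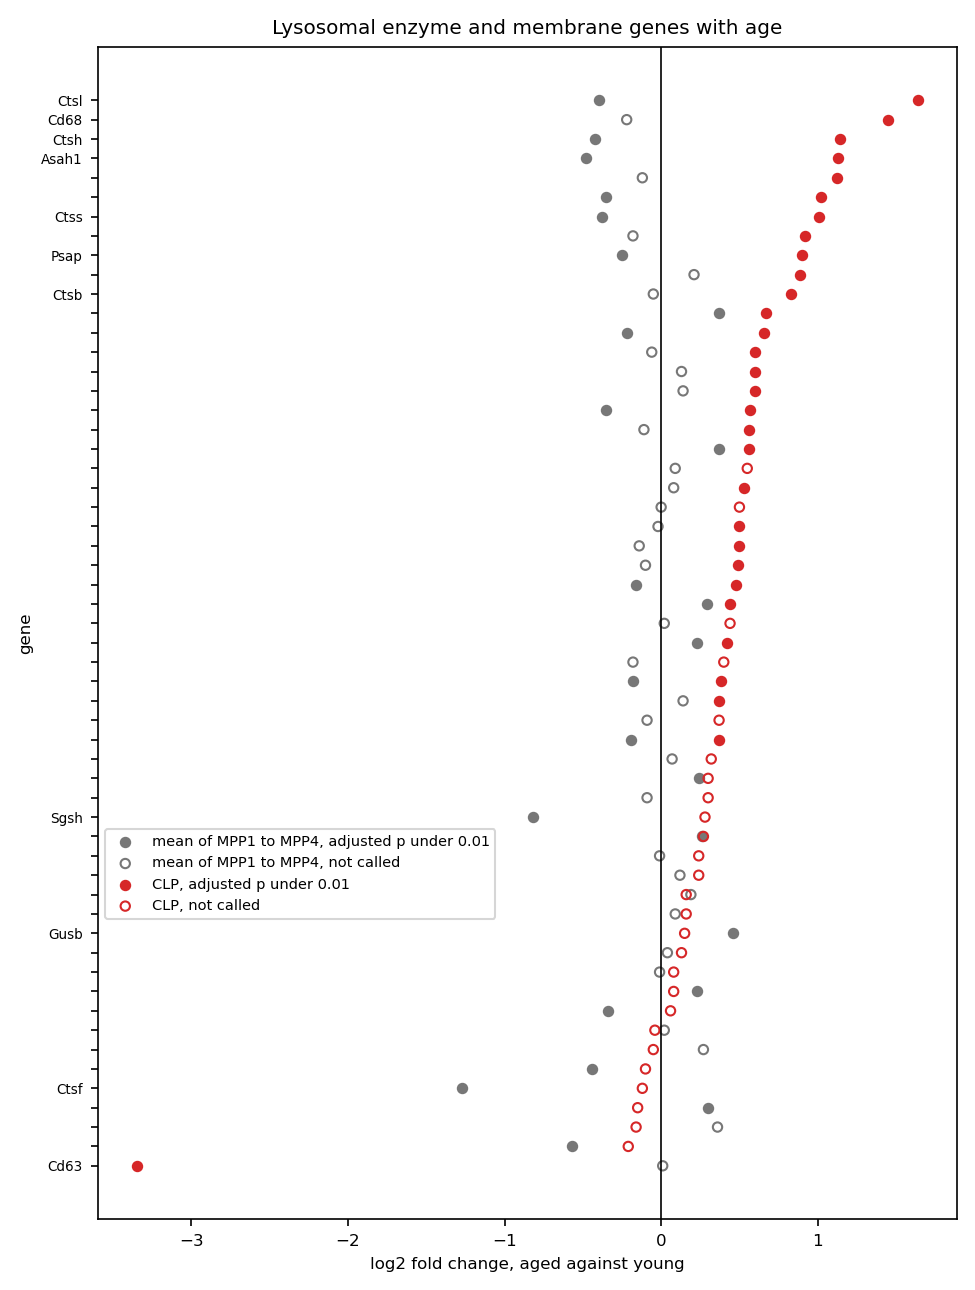
Log2 fold change in aged against young cells (horizontal axis) of 56 lysosomal enzyme and membrane genes (vertical axis, ordered by the change in CLPs, with names for the genes described in the text) in CLPs (red) and over the mean of MPP1 to MPP4 (gray), filled where the adjusted p was under 0.01. In CLPs 29 genes were called higher, led by Ctsl at 1.64, and Cd63 was called lower at −3.35, whereas over the MPPs 9 were called higher and 16 lower.

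Markers of other cells moved with these genes in CLPs. Of 18 dendritic cell markers, a list added after the lysosomal values had been seen, 11 rose and 0 fell, and none was at 0 in either age. Their summed level was 9950 to 10143 CPM in young and 17997 to 24763 in aged CLPs. Siglech, a marker of plasmacytoid dendritic cells, was at 1071 and 1056 CPM in young and 3155 and 2089 in aged CLPs, and Cd74, the invariant chain of antigen presentation, at 2089 and 2173 against 6689 and 4725. The first aged library was again the higher one. Part of this rise was shared with MPPs, where over the mean 5 of the 18 rose and 2 fell. Cd74 rose by 1.42 in CLPs and by 1.33 over the MPP mean. H2-Aa, H2-Ab1 and H2-Eb1 rose by 1.79, 1.66 and 1.51 in CLPs and by 1.35, 1.4 and 1.79 over the MPP mean. The difference of age effects between CLPs and MPPs was called for 3 of the 18, each toward higher, beside 22.6% of all tested genes. Siglech, at a mean of at most 0.982 CPM in any MPP group, differed by 3.8 and was not called. Cd209d, at 0 in the MPPs of both ages, differed by 1.87 and was not called. For genes so near 0 in MPPs this test could hardly decide.

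Markers of several other lineages fell in the same libraries, where 4.73% of all tested genes were lower. Basophil and mast cell markers, 6 of 6, went from a summed 1740 to 1788 CPM to one of 8.26 to 12.3, B cell markers, 8 of 10, from 3079 to 3172 CPM to 1519 to 1529, and neutrophil and monocyte markers, 9 of 11, from 2144 to 2193 CPM to 728 to 883. Of 14 macrophage markers 10 fell and 1 rose, and of 15 listed 1 was at 0 in both young and 3 in both aged libraries. The 1 that rose was Cd68, also on the lysosomal list, from 103 and 111 to 361 and 223 CPM. Vcam1, among those that fell, went from 52.5 and 55.8 to 1.54 and 1.34 CPM. The summed level of the list, which includes Cd68, was 415 to 447 CPM in young and 329 to 438 in aged CLPs. Of 10 erythroid markers 2 fell and 0 rose. Of 9 T and NK cell markers 1 fell and 0 rose, with a summed level of 113 to 115 CPM in young and 125 to 156 in aged CLPs. The part of a changed mixture of cells in the lysosomal and autophagy values of aged CLPs was not tested.

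Whether the age effect itself differed between fractions was tested as the change in GMPs, MEPs or CLPs minus the mean change in MPP1 to MPP4. The 3 comparisons share the MPP libraries. In GMPs 10 members differed, 6 toward higher and 4 toward lower, where 26.6% of all tested genes differed. Lamp2 differed by −0.94 ± 0.13 (adjusted p = 8.75e-06), having fallen in GMPs and risen in MPPs. Gabarapl1 differed by 0.63 ± 0.09 (adjusted p = 1.80e-05) and Lamp1 by −0.39 ± 0.07 (adjusted p = 2.21e-04), and these 3 held in each alternative tried. Ulk1 (1.09), Atg2a (1.05), Map1lc3a (1.05), Atg16l2 (0.74), Sqstm1 (0.48), Atg4a (−0.60) and Atg4b (−0.28) made up the rest. In GMPs themselves Map1lc3a was at 11.7 and 5.87 CPM in young and 13.7 and 11.5 in aged cells, with overlap, and Sqstm1 at 227 and 234 against 246 and 232, also with overlap. Atg16l2 was at 12 and 17.3 CPM in young and 22.8 and 21.7 in aged GMPs, and Atg4a at 47.5 and 35.9 against 29.3 and 28.2, both without overlap.

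In MEPs 9 members differed, 8 toward higher and 1 toward lower, beside 24.8% of all tested genes. Lamp2 differed by −0.95 ± 0.13 (adjusted p = 1.08e-05), Gabarapl1 by 0.80 ± 0.09 (adjusted p = 8.73e-07), Tfe3 by 1.01 ± 0.16 (adjusted p = 3.57e-05), Atg16l1 by 1.04 ± 0.18 (adjusted p = 1.08e-04) and Sqstm1 by 0.52 ± 0.10 (adjusted p = 2.32e-04). These 5 held in each alternative tried. Sqstm1 itself was at 251 and 217 CPM in young and 247 and 253 in aged MEPs, with overlap, while it fell in MPPs. The other 4 were Map1lc3a (1.08), Ulk1 (0.78), Atg9a (0.69) and Atg2a (0.46). Ulk1 was at 29.8 and 48.2 CPM in young and 58.9 and 53 in aged MEPs, Atg9a at 52.8 and 52.3 against 64.1 and 74.1, and Map1lc3a at 6.47 and 5.89 against 8.62 and 9.47, each without overlap. Without the second aged MEP library 5 members were called.

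In CLPs 11 members differed, each toward higher, beside 22.6% of all tested genes. Sqstm1 was at 267 and 262 CPM in young and 356 and 284 in aged CLPs, and its age effect differed from that in MPPs by 0.70 ± 0.10 (adjusted p = 8.82e-06). Map1lc3b differed by 0.47 ± 0.07 (adjusted p = 2.45e-05) and Gabarapl1 by 0.51 ± 0.09 (adjusted p = 1.79e-04). These 3 held in each alternative tried, and 4 of 5 Atg8 genes were among the 11. The other 8 were Map1lc3a (0.82), Atg16l1 (0.80), Uvrag (0.66), Atg14 (0.57), Ulk2 (0.54), Gabarapl2 (0.48), Atg12 (0.35) and Atg13 (0.33). Gabarapl1 was at 76.3 and 71.9 CPM in young and 82.8 and 95 in aged CLPs, Gabarapl2 at 88.3 and 88.1 against 123 and 98.8, and Map1lc3a at 15 and 17.3 against 21.5 and 18.1. Atg14 was at 30 and 26.9 CPM against 37.9 and 35.4, Atg16l1 at 19.4 and 16.5 against 26.3 and 23.3, and Ulk2 at 63.4 and 62.5 against 80.8 and 71. Atg12 was at 54 and 53.5 CPM against 58.5 and 62.3, and Atg13, a subunit of the Ulk complex, at 79.1 and 67.3 against 90.6 and 88.6. These 8 genes were listed because their difference was called toward higher, a test that uses the same CLP values. That both aged libraries lay above both young ones in each is therefore no separate result. Of the 8, Uvrag was the one whose change within CLPs was itself called. Without the first aged CLP library 4 members were called, and without the first or second young one 7 and 5.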

How the data were processed

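RNA was sequenced from 32 libraries, 2 for each of 8 fractions at each of 2 ages. Per the study's methods and the submitters' processing notes, libraries were made with a SMARTer Ultra Low Input kit and read from a single end without molecular identifiers, and reads were aligned to mm10 with TopHat2 2.0.13 and Bowtie2 2.1.0. The authors summarized reads per gene with StringTie and deposited raw counts, whose strand setting is not given in the sources used here. A table normalized with DESeq2 and 8 tables of the authors' comparisons, which hold their fold changes and p-values, were not used.

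Libraries were grouped by their labels. Counts were scaled by trimmed means (factors of 0.807 to 1.11), filtered with edgeR's filterByExpr and fitted over the 16 groups with glmQLFit and glmQLFTest (edgeR 4.0.16, R 4.3.3; 16 residual degrees of freedom), in 17 contrasts, each with Benjamini-Hochberg adjustment and a threshold of 0.01. SE is the standard error of a log2 fold change; those of the members ran from 0.03 to 0.36. CPM values use the scaled totals. No libraries were alike within counting noise (chi-square per degree of freedom of 4.83 to 20.2 between replicates). Genes were matched to GENCODE M21 (GRCm38, the same build as mm10), 23350 by symbol and 669 by an older symbol; overlaps of exons were read from it. The fit was tested on simulated counts with known changes.

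The members and the other lists were chosen with earlier results of these data known. Members were named with values where called with age in 3 fractions or at a log2 change of 1, among the 3 largest changes in each direction of a young comparison, or in a difference of age effects; genes of the other lists where called in the same direction in 4 or more fractions. The lysosomal genes of CLPs and the markers named beside results were chosen after their values were seen. Alternatives were DESeq2 1.42.0 (Wald test, or its size factors in edgeR), no low-count filter, a threshold of 0.05, the compared groups alone, a replicate block, offsets for GC content and exon length (a spline of 5 degrees of freedom over the 14001 genes with both values, 98.9% of those tested), both together, and leaving out each library.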

Additional observations from a re-analysis of the deposited data

Results flagged for a closer look

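The age effect differed from the mean of MPP1 to MPP4 for 30 gene and fraction pairs, each tested as an interaction in edgeR at an adjusted p under 0.01. The values are differences of log2 fold changes, those for the 3 fractions share the same MPP libraries, and they are not independent of each other. The pairs make up 27.8%, 25% and 30.6% of the members in GMPs, MEPs and CLPs, beside 26.6%, 24.8% and 22.6% of all tested genes. In HSCs 0 members differed, beside 3.01% of all tested genes.

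In GMPs the differences were 1.09 for Ulk1, 1.05 for Atg2a, 1.05 for Map1lc3a, 0.74 for Atg16l2, 0.63 for Gabarapl1, 0.48 for Sqstm1, −0.28 for Atg4b, −0.39 for Lamp1, −0.60 for Atg4a and −0.94 for Lamp2. In MEPs they were 1.08 for Map1lc3a, 1.04 for Atg16l1, 1.01 for Tfe3, 0.80 for Gabarapl1, 0.78 for Ulk1, 0.69 for Atg9a, 0.52 for Sqstm1, 0.46 for Atg2a and −0.95 for Lamp2. In CLPs they were 0.82 for Map1lc3a, 0.80 for Atg16l1, 0.70 for Sqstm1, 0.66 for Uvrag, 0.57 for Atg14, 0.54 for Ulk2, 0.51 for Gabarapl1, 0.48 for Gabarapl2, 0.47 for Map1lc3b, 0.35 for Atg12 and 0.33 for Atg13.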

How the results depend on the processing

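Numbers of called members are given in the order of the fractions named, against 1, 1, 1, 1, 7, 6, 6 and 4 in HSC, MPP1, MPP2, MPP3, MPP4, GMP, MEP and CLP. The DESeq2 Wald test gave 2, 2, 5, 11, 11 and 9 in MPP1, MPP2, MPP3, MPP4, GMP and CLP, 1 in place of 0 for the age difference in HSCs and 17 in place of 11 for that in CLPs. DESeq2's size factors gave 2 in MPP3, and no low-count filter gave 1 in CLP. A threshold of 0.05 gave 2, 2, 3, 4, 11, 13, 11 and 11, and 18 and 19 for the age differences in GMPs and CLPs. The compared groups alone gave 0, 3, 4, 0, 2, 1, 2 and 0, 18 for the age difference in CLPs, and 1 in place of 30 lysosomal genes in CLPs. The cause of these shifts was not tested.

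Leaving out 1 library gave 0 to 2 in HSC, 0 to 0 in MPP1, MPP2 and MPP3, 2 to 3 in MPP4, 2 to 8 in GMP, 3 to 5 in MEP, 0 to 5 in CLP and 10 to 14 over the MPP mean. For the age differences it gave 0 to 1 in HSC (1 without the second aged HSC library), 7 to 12 in GMP, 5 to 10 in MEP and 4 to 11 in CLP. Young contrasts ran from 10 to 14 for MPP against HSC, 22 to 25 for GMP, 27 to 31 for MEP and 17 to 26 for CLP. The lysosomal list ran from 12 to 32 in CLP and 22 to 33 for its age difference.

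The replicate numbers did not pair the libraries: over 120 pairs of groups the correlations of deviations ran from −0.052 to 0.094. With the replicate block no count moved by over 1.5 times; 12 members in place of 11 were called for the age difference in CLPs and 14 in place of 15 for young MPPs against HSCs.

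The offsets for GC content and exon length gave 2 in MPP1 and 2 in MPP3, as did the block together with them. They turned the direction of 24 values. With age, Atg3 in MEPs was at 0.35 and Atg2a over the MPP mean at 0.03, and in young MPPs against HSCs Rb1cc1 was at −0.31. In young GMPs Atg16l2 was at 0.70 (0.69 with the block), Atg4d 0.84, Map1lc3b 0.00 (0.01), Gabarap −0.01, Sqstm1 0.13 (0.14), Wipi2 0.02, Tfeb 0.90, Rb1cc1 0.49, Uvrag 0.56 and Ambra1 0.22. In young MEPs Atg7 was at 0.37, Atg13 0.52, Atg14 0.06, Atg9a 1.02, Atg2a 1.10, Ulk1 0.01, Map1lc3b 0.21, Sqstm1 0.56, Foxo3 0.88 (0.87), Rb1cc1 0.07 and Ambra1 0.80. The lowest count of a member in any library was 21.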

Other observations

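Among genes of autophagy and the lysosome outside the 36, 9 of 144 (6.25%) were called with age in the same direction in 4 or more fractions, a share near the 5.89% of all tested genes. Ctsf, a lysosomal cathepsin gene, fell in 5: in MPP4 it was at 37.2 and 42 CPM in young and 14.3 and 12.6 in aged cells (−1.56, edgeR adjusted p = 5.81e-08), and over the MPP mean it changed by −1.27. Sgsh, which encodes the heparan sulfate sulfamidase, also fell in 5, from HSCs (−0.68) to MPP4 (−0.71), and was at 0.17, 0.30 and 0.28 in GMPs, MEPs and CLPs, where it did not pass the test. Gusb, the β-glucuronidase gene, rose in HSCs and MPPs, most in MPP4 (104 and 109 CPM in young against 172 and 186 in aged cells; 0.75), and fell in GMPs (−0.35).

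Genes of selective autophagy moved in MPPs as well. Calcoco1, an autophagy receptor gene, fell in MPP1 to MPP4 (77.5 and 67.6 CPM in young against 37.7 and 36.1 in aged MPP4) and rose in GMPs (9.05 and 9.33 against 18.7 and 19), MEPs and CLPs, by 1.03, 0.64 and 0.72 on the log2 scale. Pink1, a kinase gene of mitochondrial clearance, was at 267 and 280 CPM in young and 151 and 158 in aged MPP4 (−0.83) and rose in GMPs (0.67), while Phb2, a mitochondrial inner membrane gene, rose in MPP4 (0.66). Ncoa4, the ferritin receptor gene, fell in HSCs from 507 and 483 to 359 and 344 CPM (−0.49), and the endoplasmic reticulum receptor gene Fam134b fell by 0.72 in MPP4. The forkhead gene Foxo1 was at 23 and 29.3 CPM in young and 11.2 and 8.78 in aged MEPs (−1.39) and was lower in CLPs (−0.65).

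Over the mean of MPP1 to MPP4, 11 of 16 genes of cargo receptors and mitophagy fell and 1 rose, where 17.7% of all tested genes fell and 18.9% rose. Of 24 other genes of nucleation and fusion 5 fell and 4 rose there, as did 5 and 4 of 30 regulators around mTORC1 and AMPK, and 2 and 0 of 18 proton pump genes, shares near or below those over all genes.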
